A study of Arabidopsis thaliana with 15 samples.

Results

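The 48 genes described here encode the light-harvesting antenna proteins, the nuclear-encoded subunits of photosystem I and photosystem II, and the carbon fixation proteins Rubisco small subunit, phosphoribulokinase and Rubisco activase of Arabidopsis thaliana. They were picked by locus identifier from a table of 32833 genes, with earlier results of these data known, and all 48 were found in it. By family they comprise 6 LHCA, 14 LHCB, 12 photosystem I, 10 photosystem II and 6 carbon fixation genes. The libraries came from whole seedlings of 1 week of age, grown untreated on diluted Murashige and Skoog medium with 1% sucrose, and RNA was taken from about 100 mg of tissue per sample. mRNA was sequenced as strand-specific libraries from 5 genotypes, namely the wild type Col-0 (WT), gyf1 and gyf2 as single mutants, and gyf1 gyf2-1 and gyf1 gyf2-2 as double mutants. The labels list 3 libraries per genotype, whereas the design text speaks of duplicates. They give neither the mutated loci nor the kind of mutation, and it is not stated whether gyf2-1 and gyf2-2 name alleles or lines, or which of them the gyf2 single mutant carries. No label ties the libraries to separate cultures, so p-values measure the spread between these samples, which may be technical.

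In chloroplasts of land plants, LHCA proteins form the antenna of photosystem I and LHCB proteins that of photosystem II, and both bind chlorophyll. Light drives electrons from water through photosystem II and photosystem I to ferredoxin, and the Calvin cycle uses the resulting ATP and NADPH to fix carbon dioxide with Rubisco. The reaction centre proteins and the large subunit of Rubisco are encoded in the plastid, while the genes described here are nuclear, are transcribed strongly in green tissue, and respond to light, sugar and chloroplast signals through regulators such as the GLK and HY5 transcription factors.

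Depth ranged from 16567801 to 24681140 counts per library, and the members took 11.9 ± 0.507% of all counts (mean ± SD, n = 3) in WT, 10.7 ± 0.262% for gyf1, 11.0 ± 0.595% for gyf2, 11.1 ± 0.465% for gyf1 gyf2-1 and 11.2 ± 0.649% for gyf1 gyf2-2. Of the 48 members, 47 passed the filter on low counts. LHCB1.5 (AT2G34420) had 0 counts in every library, and all of its exonic bases are overlapped by AT2G08665 on the opposite strand, which also had 0 counts, so it is listed at 0 and left out below. The sources used here do not give the strand setting of the counting, so counts of overlapping genes are uncertain. Annotated neighbours overlap 61.4% of the exonic bases of PSAG, 53.3% of PSAH1, 40.6% of LHCB2.3, 34.1% of PSAE1, 24.8% of PSAH2, 20.4% of LHCB6 and 15.0% of LHCB3. Some replicates stood apart. In WT the chi-square statistic per gene was 9.58 and 9.56 between replicate 1 and its partners but 4.11 between those. Libraries gyf2 replicate 3, gyf1 gyf2-1 replicate 1 and gyf1 gyf2-2 replicate 2 likewise differed more from their 2 partners than those did from each other. Member calls that were lost without any one library are given with that library's name. Changes in whole seedlings are per total RNA, and fewer cells of a green tissue cannot be told apart from less RNA per cell.

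Against WT, the levels of most of these genes were lower in every mutant, by small amounts. Without the replicate number fitted as a block, the changes rarely passed edgeR's test in the single mutants and more often in the double mutants. At an adjusted p below 0.05 (edgeR's quasi-likelihood test, adjusted over all 20721 genes tested), LHCB6 and PSAD2 fell in gyf1, which is 2 of 47 members against 0.116% of all tested genes. In gyf2 LHCB6, PSAE1, PSBQ1 and PSBX fell, which is 4 of 47 members against 0.516% of all tested genes. DESeq2 called 11 members lower in gyf1 and 4 in gyf2, and limma on log2(FPKM + 0.1) called 1 and 2. With the replicate number fitted as a block, edgeR also called more members lower in gyf1, as given further on. No member rose in either single mutant, where 0.405% of all tested genes rose in gyf1 and 1.99% in gyf2. No member was higher at an unadjusted p below 0.05, beside 1111 of all 20721 tested genes in gyf1 and 1496 in gyf2. DESeq2 and limma also called no member higher. The median log2 fold change over the 47 members was −0.22 in gyf1 and −0.17 in gyf2, beside −0.0038 and −0.01 over all tested genes. Values below 0 were found for 43 of 47 members in gyf1 and 45 in gyf2, where 51% and 52.2% of all tested genes were below 0. All 3 gyf1 libraries lay below all 3 WT libraries for 31 members, a pattern found in 7.42% of all tested genes, and 33 members were lower at an unadjusted p below 0.05, as were 4.77% of all tested genes. In gyf2, 20 members lay wholly below WT (8.95% of all tested genes) and 23 were lower at an unadjusted p below 0.05 (6.44% of all tested genes). The calls in the single mutants depended on single libraries. In gyf1 the count of members that fell was 0 without WT replicate 1 or 3 or gyf1 replicate 2 or 3, 1 without gyf2 replicate 2, gyf1 gyf2-1 replicate 2 or gyf1 gyf2-2 replicate 1 or 3, 4 without WT replicate 2 and 6 without gyf1 gyf2-2 replicate 2. In gyf2 it was 0 without WT replicate 3 or gyf2 replicate 2 or 3, and 1 without WT replicate 1.

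In the double mutants more of the changes passed the adjusted threshold, nearly all of them lower. At an unadjusted p below 0.05 in edgeR's test, 25 members were lower and 3 higher in gyf1 gyf2-1. In gyf1 gyf2-2, 22 were lower and 1 higher, beside 33 lower in gyf1 and 23 in gyf2. Of all 20721 tested genes, 3695 were lower and 3971 higher at that p in gyf1 gyf2-1. In gyf1 gyf2-2, 3781 were lower and 4116 higher. The number of calls thus does not rank the mutants by size of change. In gyf1 gyf2-1, 20 members fell and 1 rose, where 11.7% of all tested genes fell and 14.2% rose. In gyf1 gyf2-2, 14 fell and 1 rose, where 12.6% of all tested genes fell and 15.1% rose. Lower in both lines were 12 members, namely LHCA6, LHCB2.3, LHCB4.1, LHCB4.3, LHCB5, LHCB6, PSBP1, PSBQ1, PSBS, PSBX, RBCS1B and RBCS2B, where 8.56% of all tested genes were lower in both. RBCS1A was the 1 member that rose, and it rose in both lines, as 11.5% of all tested genes did. LHCB6 was the 1 member that fell in all 4 mutants (0.0483% of all tested genes), and 24 members were called in none. How many of all tested genes were called in none was not counted, so these 24 have no background beside them. The median log2 fold change over the members was −0.20 in gyf1 gyf2-1 and −0.14 in gyf1 gyf2-2, beside −0.01 and −0.01 over all tested genes. Values below 0 were found for 39 and 35 of 47 members, where 52% and 51.3% of all tested genes were below 0. All libraries of gyf1 gyf2-1 lay below all WT libraries for 23 members (18.7% of all tested genes), and those of gyf1 gyf2-2 for 18 (18.9%). The 4 comparisons with WT share the WT libraries. In gyf1 gyf2-1 the count that fell was 11 without WT replicate 1, 10 without its own replicate 2 and 9 without its own replicate 3, and the count that rose was 2 without WT replicate 2 or gyf1 gyf2-2 replicate 2. In gyf1 gyf2-2 the count that fell was 8 without its own replicate 2, and the count that rose was 2 without WT replicate 2, 3 without its own replicate 2 and 0 without its own replicate 3.

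**Figure D1:**
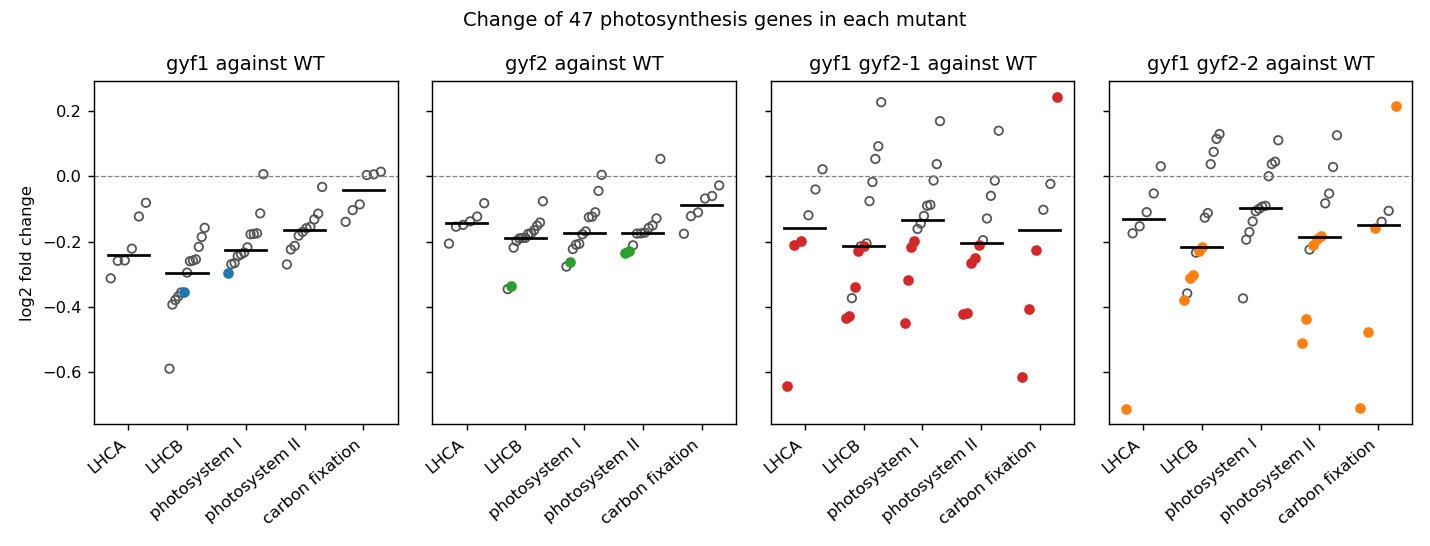
Each point is 1 of the 47 tested genes, with its log2 fold change against WT on the vertical axis and its subgroup on the horizontal axis, 1 panel per mutant. Filled points passed an adjusted p below 0.05 in edgeR's test, open points did not, and bars mark subgroup medians. The gyf1 points run from −0.59 to 0.01 with a median of −0.22 and the gyf2 points from −0.35 to 0.05 with a median of −0.17. Those of the double mutants run from −0.71 for LHCA6 to 0.24 for RBCS1A, with medians of −0.20 in gyf1 gyf2-1 and −0.14 in gyf1 gyf2-2.

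Carbon fixation genes had the subgroup median nearest to 0 in both single mutants. In gyf1 the median log2 fold change of the LHCA, LHCB, photosystem I, photosystem II and carbon fixation genes was, in that order, −0.24, −0.29, −0.23, −0.16 and −0.04. In gyf2 these medians were −0.14, −0.19, −0.17, −0.17 and −0.09. In gyf1 gyf2-1 the medians were −0.16, −0.21, −0.13, −0.20 and −0.16, and in gyf1 gyf2-2 −0.13, −0.22, −0.10, −0.19 and −0.15. The photosystem I median lay nearest to 0 in both double mutants. In gyf1 gyf2-1 this order did not hold with near-identical copies summed, where the carbon fixation median was −0.06. Several of these medians moved by over 1.5 times under another setting. In gyf1 the carbon fixation median was −0.10 without WT replicate 1, 0.00067 without WT replicate 2, −0.02 without gyf1 replicate 1, −0.08 without gyf1 replicate 3 and 0.01 with near-identical copies summed. In gyf2 it was −0.05 without WT replicate 2, −0.05 without gyf2 replicate 3 and −0.06 with copies summed, and the LHCA median was −0.09 without gyf2 replicate 3. In gyf1 gyf2-1 the LHCA median was −0.09 without its replicate 3, the photosystem I median −0.08 without WT replicate 1 and the carbon fixation median −0.06 with copies summed. In gyf1 gyf2-2 the photosystem II median was −0.12 without WT replicate 1. Without its own replicate 2, gyf1 gyf2-2 had medians of −0.06 for LHCA, −0.09 for LHCB and −0.04 for photosystem I. The 20 members that fell in gyf1 gyf2-1 comprised 3 LHCA, 5 LHCB, 4 photosystem I, 5 photosystem II and 3 carbon fixation genes, and the 14 that fell in gyf1 gyf2-2 comprised 1 LHCA, 5 LHCB, 5 photosystem II and 3 carbon fixation genes. Differences between subgroups were not tested. From library to library, the members' median log2 difference from the WT mean was −0.07 to 0.05 in the WT libraries, −0.24 to −0.16 for gyf1, −0.24 to −0.08 for gyf2, −0.25 to −0.10 for gyf1 gyf2-1 and −0.25 to −0.05 for gyf1 gyf2-2.

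**Figure D2:**
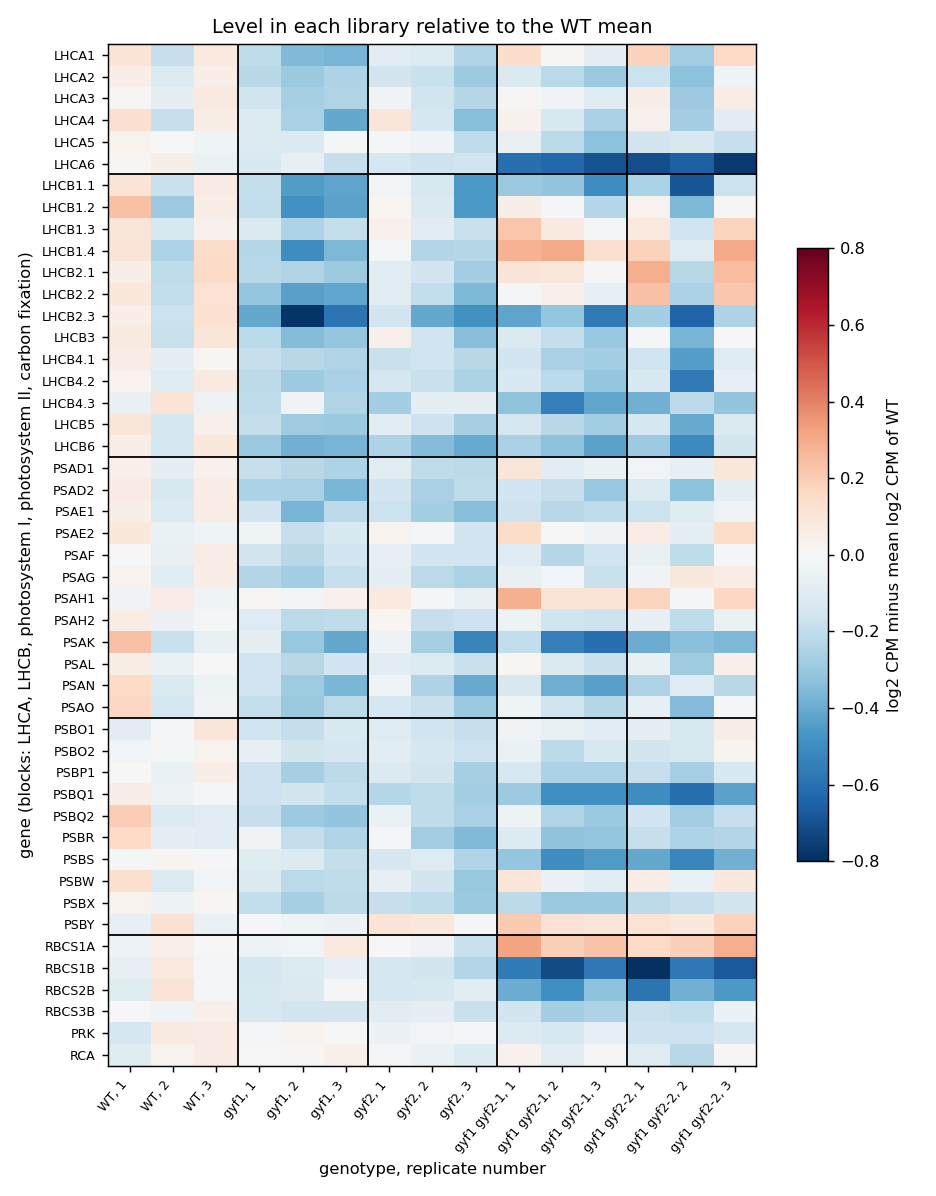
Each row is a tested gene and each column a library, coloured by its log2 CPM minus the mean log2 CPM of the 3 WT libraries, with black lines between genotypes and between subgroups. LHCA6 and RBCS1B are dark, that is low, in the 6 double mutant libraries, LHCB2.3 is dark in gyf1, and RBCS1A is above the WT mean in all 6.

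Among the 6 antenna genes of photosystem I, LHCA6 was the one that fell most. LHCA6 (AT1G19150, chromosome 1, 6612630 to 6613972, plus strand in TAIR10) encodes a low-abundance antenna protein that links photosystem I to the chloroplast NADH dehydrogenase-like complex, and in WT its level per length was 78.6 ± 2.75 FPKM, beside 3120.4 ± 344 FPKM for LHCA4. Library-scaled counts (CPM) of LHCA6 were 92.3, 94.9 and 88.4 CPM in WT, 84.5, 87.7 and 81.0 for gyf1, 83.4, 82.0 and 82.4 for gyf2, 60.5, 59.4 and 56.6 for gyf1 gyf2-1 and 56.1, 58.3 and 54.0 for gyf1 gyf2-2. All 6 double mutant libraries lay below all others, and the single mutants lay between them and WT without overlap. LHCA6 had a log2 fold change against WT of −0.64 (adjusted p = 7.58e-09, SE 0.06) in gyf1 gyf2-1 and of −0.71 (adjusted p = 7.28e-10, SE 0.06) in gyf1 gyf2-2. No single library, left out in turn, removed the call in either line. The log2 fold change was −0.12 (adjusted p = 0.507, SE 0.06) in gyf1 and −0.15 (adjusted p = 0.243, SE 0.06) in gyf2. The other minor antenna gene of this kind, LHCA5, fell in gyf1 gyf2-1 (log2 fold change −0.20, adjusted p = 0.0357, SE 0.07). The LHCA5 call was lost without WT replicate 1 or 2 or gyf1 gyf2-1 replicate 2 or 3 (adjusted p 0.0788 to 0.229), and its value was −0.15 (adjusted p = 0.101, SE 0.07) in gyf1 gyf2-2.

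The main antenna genes LHCA1 to LHCA4, whose products pair into the dimers that flank the photosystem I core, had values nearer 0 than LHCA6 in the double mutants. LHCA2 was at 2847, 2549 and 2851 CPM in WT, 2349.6, 2239 and 2309.5 for gyf1, 2476, 2426 and 2248 for gyf2, 2529, 2368 and 2238 for gyf1 gyf2-1 and 2441, 2183 and 2683 for gyf1 gyf2-2. Its gyf1 gyf2-1 libraries lay wholly below WT, and those of gyf1 gyf2-2 overlapped WT. LHCA2 fell in gyf1 gyf2-1 (log2 fold change −0.21, adjusted p = 0.0273, SE 0.07). The LHCA2 call was lost without WT replicate 1 or 3 or gyf1 gyf2-1 replicate 2 or 3 (adjusted p 0.0844 to 0.158), and its value in gyf1 gyf2-2 was −0.17 (adjusted p = 0.0636, SE 0.07). LHCA1, the member of this subgroup with the highest mean value over both double mutants, was at 2442, 1986 and 2381 CPM in WT, 1967, 1769 and 1749 for gyf1, 2137, 2094 and 1912 for gyf2, 2489.9, 2277 and 2146 for gyf1 gyf2-1 and 2568, 1863 and 2525 for gyf1 gyf2-2. Only the gyf1 libraries lay wholly below WT for LHCA1 among the 4 mutants. Its log2 fold change was −0.31 (adjusted p = 0.291, SE 0.11) in gyf1, 0.02 (adjusted p = 0.908, SE 0.11) in gyf1 gyf2-1 and 0.03 (adjusted p = 0.861, SE 0.11) in gyf1 gyf2-2. LHCA4, the gene of this subgroup with the highest FPKM, was at 4421, 3563 and 4207 CPM in WT, 3758, 3385 and 3046 for gyf1, 4332, 3669 and 3192 for gyf2, 4141, 3707 and 3376 for gyf1 gyf2-1 and 4143, 3333 and 3822 for gyf1 gyf2-2. Each mutant overlapped WT in LHCA4, and its values were −0.26 (adjusted p = 0.494, SE 0.12) in gyf1 and −0.12 (adjusted p = 0.516, SE 0.12) in gyf1 gyf2-1. For LHCA3 the log2 fold change was between −0.22 in gyf1 and −0.04 in gyf1 gyf2-1, with no call.

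The LHCB2 genes, which with LHCB1 and LHCB3 supply the trimeric light-harvesting complex of photosystem II, held 1 copy, LHCB2.3, that fell in both double mutants and 2 that did not pass the test there. Over aligned positions, coding sequences of LHCB2.1 and LHCB2.2 are 92.1% identical, and those of LHCB2.3 and LHCB2.2 84.7%. The 250 bases before the annotated gene start of each copy are shown because LHCB2.3 was called in the double mutants and the other copies were not. They come from RefSeq's TAIR10.1 assembly, read 5′ to 3′ on the gene's strand, with capitals for matches to G-box CACGTG, I-box GATAAG or CCAATC on either strand.
LHCB2.1 (chr2:1824481-1824730, minus strand): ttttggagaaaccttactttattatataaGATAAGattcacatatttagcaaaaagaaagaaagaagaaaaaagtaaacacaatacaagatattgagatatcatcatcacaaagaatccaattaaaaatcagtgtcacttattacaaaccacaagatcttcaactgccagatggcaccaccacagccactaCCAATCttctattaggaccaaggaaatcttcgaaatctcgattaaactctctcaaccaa
LHCB2.2 (chr2:1800473-1800722, minus strand): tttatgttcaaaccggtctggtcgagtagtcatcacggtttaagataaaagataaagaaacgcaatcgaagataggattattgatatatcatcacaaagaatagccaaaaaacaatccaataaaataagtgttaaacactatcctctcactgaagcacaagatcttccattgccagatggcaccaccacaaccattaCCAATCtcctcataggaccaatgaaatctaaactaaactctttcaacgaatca
LHCB2.3 (chr3:10255656-10255905, plus strand): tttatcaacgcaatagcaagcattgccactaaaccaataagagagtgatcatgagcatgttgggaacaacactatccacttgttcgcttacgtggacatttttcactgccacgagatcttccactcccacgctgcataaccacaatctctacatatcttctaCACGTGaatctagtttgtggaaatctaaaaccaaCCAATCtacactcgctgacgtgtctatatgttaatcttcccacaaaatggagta

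A CCAATC match, letters found at targets of the GLK factors, starts 59 bases before the start of LHCB2.1, 53 before LHCB2.2 and 54 before LHCB2.3. LHCB2.3 also holds a G-box, the letters bound by HY5 and PIF factors, starting 88 bases before the start, and LHCB2.1 an I-box, the letters GATA factors bind, starting 221 bases before it. Over the 48 members, CCAATC was found in 12 of 48 windows (25%), against 10.2% of 27443 protein-coding genes, and by subgroup in 3 of 6 LHCA, 7 of 14 LHCB, 0 of 12 photosystem I, 1 of 10 photosystem II and 1 of 6 carbon fixation genes. The G-box was found in 10 of 48 members (20.8%) against 6.49%, the I-box in 11 of 48 (22.9%) against 12.3%, and the evening element AAAATATCT of the circadian clock in 1 of 48 against 2.36%. These are matches to letters, not measured binding sites.

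LHCB2.3 was at 449.6, 385 and 471 CPM in WT, 326, 252 and 289 for gyf1, 390.4, 327 and 309.8 for gyf2, 324, 349.8 and 293 for gyf1 gyf2-1 and 359.7, 278 and 366 for gyf1 gyf2-2. Every library of gyf1 and of both double mutants lay below WT, while gyf2 overlapped WT. For LHCB2.3 the log2 fold change against WT was −0.43 (adjusted p = 0.0191, SE 0.12) in gyf1 gyf2-1 and −0.38 (adjusted p = 0.0344, SE 0.12) in gyf1 gyf2-2. The call was lost in gyf1 gyf2-1 without WT replicate 1 or 3 or gyf1 gyf2-1 replicate 1 or 3 (adjusted p 0.0541 to 0.0868), and in gyf1 gyf2-2 without WT replicate 1 or 3, gyf1 gyf2-1 replicate 1 or gyf1 gyf2-2 replicate 2 (adjusted p 0.053 to 0.125). In gyf1 its value was −0.59 (adjusted p = 0.057, SE 0.12), the lowest log2 fold change of any member there, and it did not pass the test. LHCB2.2 was at 1261, 1039 and 1289.6 CPM in WT, 959.7, 881 and 894 for gyf1, 1117, 1039 and 929.9 for gyf2, 1185, 1226 and 1137 for gyf1 gyf2-1 and 1399, 1001 and 1382 for gyf1 gyf2-2. Its gyf1 libraries lay below WT, and all 6 double mutant libraries lay above gyf1 and overlapped WT. The log2 fold change of LHCB2.2 was −0.39 (adjusted p = 0.182, SE 0.11) in gyf1, −0.02 (adjusted p = 0.931, SE 0.11) in gyf1 gyf2-1 and 0.08 (adjusted p = 0.661, SE 0.11) in gyf1 gyf2-2. Against gyf1, the mean of both double mutants was higher for LHCB2.2 (log2 fold change 0.42, adjusted p = 0.00348, SE 0.10), a call that no left-out library removed, and for LHCB2.1 (log2 fold change 0.34, adjusted p = 0.0125, SE 0.09). The LHCB2.1 call was lost without gyf1 replicate 3 (adjusted p = 0.0576). LHCB2.3 shares 40.6% of its exonic bases with a neighbour on the opposite strand.

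LHCB1, the most abundant antenna protein family, had no copy called in a double mutant, but the copies took different shares of its summed level. LHCB1.3 had the highest level per length of the antenna genes, at 10584 ± 824 FPKM in WT, against 3465 ± 363 for LHCB1.1 and 804 ± 114 for LHCB1.4. LHCB1.1 was at 4929, 4033 and 4773 CPM in WT, 3993, 3344 and 3399 for gyf1, 4488, 4167 and 3318 for gyf2, 3718, 3673 and 3215 for gyf1 gyf2-1 and 3829.7, 2844 and 4041 for gyf1 gyf2-2. The gyf1 and gyf1 gyf2-1 libraries lay wholly below WT, and those of gyf2 and gyf1 gyf2-2 overlapped WT. LHCB1.1 had a log2 fold change against WT of −0.37 (adjusted p = 0.076, SE 0.14) in gyf1 gyf2-1 and of −0.36 (adjusted p = 0.0841, SE 0.14) in gyf1 gyf2-2, so that neither passed the test. LHCB1.4, the LHCB gene with the highest mean value over both double mutants, was at 1129, 888 and 1164 CPM in WT, 899, 747 and 821 for gyf1, 1045, 895 and 898 for gyf2, 1275, 1297 and 1152 for gyf1 gyf2-1 and 1196, 984 and 1301 for gyf1 gyf2-2. Its double mutant libraries all lay above those of gyf1 and overlapped WT. LHCB1.4 had values of −0.37 (adjusted p = 0.236, SE 0.11) in gyf1, 0.23 (adjusted p = 0.149, SE 0.11) in gyf1 gyf2-1 and 0.13 (adjusted p = 0.428, SE 0.11) in gyf1 gyf2-2. The mean of both double mutants was higher than gyf1 (log2 fold change 0.55, adjusted p = 0.000532, SE 0.10), and higher than gyf2 (log2 fold change 0.34, adjusted p = 0.0184, SE 0.10), the latter not without gyf2 replicate 2 or 3 (adjusted p 0.081 to 0.0929). LHCB1.3 was at 13945, 11966 and 13361 CPM in WT, 12037, 11032 and 11465 for gyf1, 13405, 12319.7 and 11526 for gyf2, 15230.0, 13723 and 12910.4 for gyf1 gyf2-1 and 13791, 11699 and 14812 for gyf1 gyf2-2. Every mutant overlapped WT for LHCB1.3, and gyf1 overlapped gyf1 gyf2-2 but lay below gyf1 gyf2-1. LHCB1.3 was higher in the mean of both double mutants than in gyf1 (log2 fold change 0.25, adjusted p = 0.00943, SE 0.07). The LHCB1.3 call was lost without gyf1 replicate 2 (adjusted p = 0.0655).

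Because coding sequences of LHCB1.1, LHCB1.2 and LHCB1.3 are 95.6 to 96.4% identical, reads could in part be split between them, although no 150-base window of their exons is shared exactly. LHCB1.4 made up 4.54 ± 0.285% of the summed FPKM of the LHCB1 genes in WT (mean ± SD, n = 3), 5.36 ± 0.248% in gyf1 gyf2-1 and 5.15 ± 0.0759% in gyf1 gyf2-2. LHCB1.1 made up 19.6 ± 0.222% in WT, 15.2 ± 0.489% in gyf1 gyf2-1 and 15.8 ± 0.840% in gyf1 gyf2-2. LHCB1.1, LHCB1.2 and LHCB1.3 summed differed from WT by −0.02 (adjusted p = 0.902) in gyf1 gyf2-1 and −0.06 (adjusted p = 0.679) in gyf1 gyf2-2 on the log2 scale, and neither passed the test. The LHCB1 copies together were at 22203 ± 2245 CPM in WT, 18583 ± 1211 for gyf1, 20401 ± 2086 for gyf2, 22026 ± 1783 for gyf1 gyf2-1 and 21379 ± 2822 for gyf1 gyf2-2.

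The minor antenna of photosystem II, which links trimers to the core, held LHCB6, the 1 gene called in all 4 mutants. LHCB6, or CP24, was at 2428, 2123 and 2474 CPM in WT, 1901, 1789.7 and 1806 for gyf1, 1965, 1835 and 1763 for gyf2, 1954, 1864 and 1736 for gyf1 gyf2-1 and 1906, 1641 and 2109 for gyf1 gyf2-2. All libraries of all 4 mutants lay below all WT libraries. LHCB6 fell in gyf1 (log2 fold change −0.35, adjusted p = 0.0214, SE 0.08) and in gyf2 (log2 fold change −0.34, adjusted p = 0.00931, SE 0.08). It also fell in gyf1 gyf2-1 (log2 fold change −0.34, adjusted p = 0.00144, SE 0.08) and gyf1 gyf2-2 (log2 fold change −0.31, adjusted p = 0.00259, SE 0.08). No left-out library removed the double mutant calls, whereas the gyf1 call was lost without WT replicate 1 or 3 or gyf1 replicate 2 or 3 (adjusted p 0.107 to 0.136) and the gyf2 call without WT replicate 3 or gyf2 replicate 2 or 3 (adjusted p 0.0587 to 0.0765). Neighbours overlap 20.4% of its exonic bases.

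LHCB4.3, a low-level copy of CP29 at 99.1 ± 6.27 FPKM in WT, fell in gyf1 gyf2-1 (log2 fold change −0.43, adjusted p = 0.000107, SE 0.08) and gyf1 gyf2-2 (log2 fold change −0.30, adjusted p = 0.00324, SE 0.08), and no left-out library removed either call. Its more abundant sister LHCB4.1, at 2231 ± 99.1 FPKM, fell in gyf1 gyf2-1 (log2 fold change −0.23, adjusted p = 0.0144, SE 0.07) and gyf1 gyf2-2 (log2 fold change −0.23, adjusted p = 0.0129, SE 0.07), and the calls were lost without WT replicate 1 or gyf1 gyf2-1 replicate 2 or 3 (adjusted p 0.054 to 0.0769) in gyf1 gyf2-1 and without gyf1 gyf2-2 replicate 2 (adjusted p = 0.12) in gyf1 gyf2-2. LHCB5, or CP26, fell in gyf1 gyf2-1 (log2 fold change −0.21, adjusted p = 0.0332, SE 0.07) and gyf1 gyf2-2 (log2 fold change −0.22, adjusted p = 0.0274, SE 0.07). The LHCB5 calls were lost without WT replicate 1 or 3 or gyf1 gyf2-1 replicate 2 or 3 (adjusted p 0.0966 to 0.15) in gyf1 gyf2-1 and without WT replicate 1 or 3 or gyf1 gyf2-2 replicate 2 (adjusted p 0.0818 to 0.188) in gyf1 gyf2-2. LHCB3, a trimer protein, had values of −0.21 (adjusted p = 0.159, SE 0.10) in gyf1 gyf2-1 and −0.13 (adjusted p = 0.402, SE 0.10) in gyf1 gyf2-2, and LHCB4.2 of −0.21 (adjusted p = 0.0826, SE 0.09) and −0.23 (adjusted p = 0.0561, SE 0.09), with no call.

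**Figure D3:**
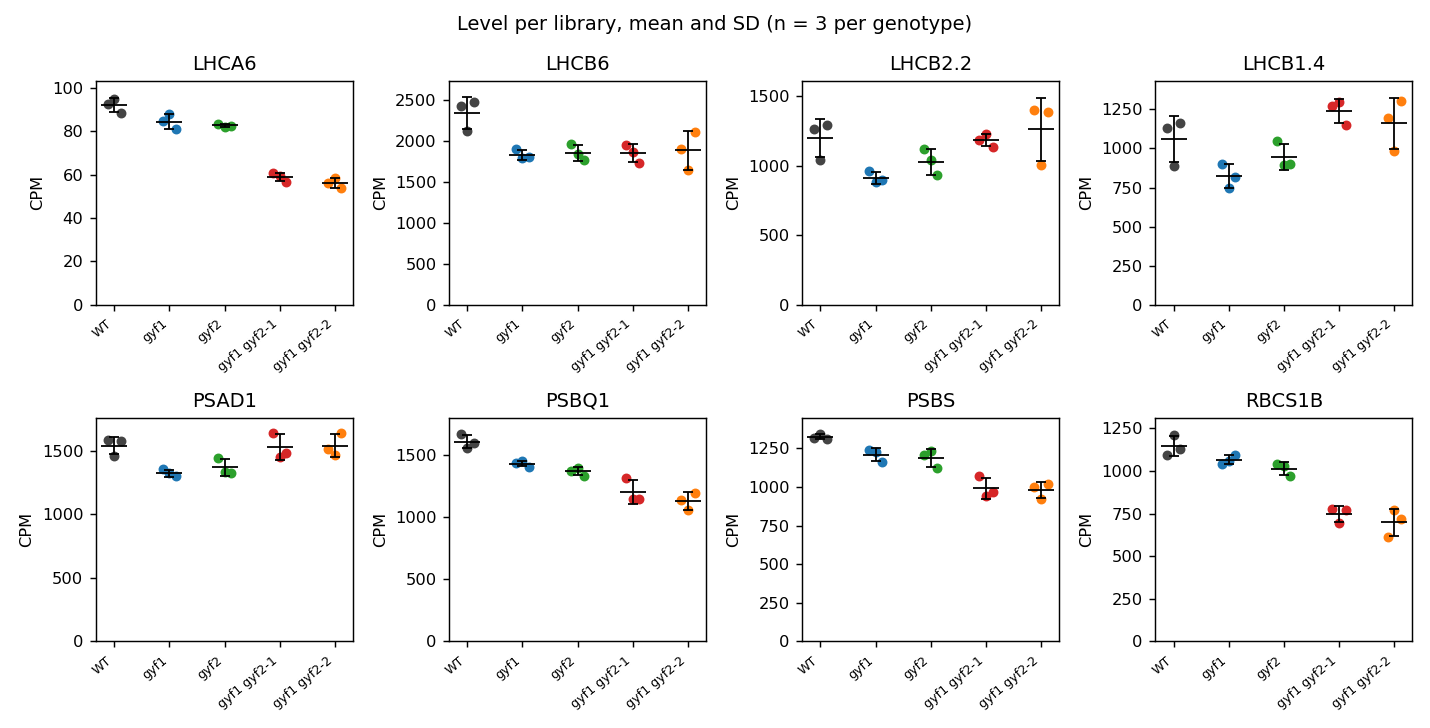
CPM in each library (points), with the mean and SD of 3 libraries per genotype (bars), for 8 genes named in the text. LHCA6, PSBQ1, PSBS and RBCS1B are lowest in the double mutants, LHCB6 is below WT in all 4 mutants, and LHCB2.2, LHCB1.4 and PSAD1 have lower means in gyf1 than in WT while the double mutants overlap WT.

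In photosystem I, PSAK, PSAN, PSAD2 and PSAE1 fell in gyf1 gyf2-1, which is 4 of the 12 subunit genes beside 11.7% of all tested genes. In gyf1 gyf2-2 edgeR called none, and 2 of the 12 were lower at an unadjusted p below 0.05, as were 18.2% of all tested genes. The difference between the 2 lines was itself not called for any member, as given further on. PSAK encodes a subunit at the antenna-facing edge of the core, and was the photosystem I gene with the highest FPKM, at 2716 ± 408 in WT. PSAK was at 2454, 1845 and 2003 CPM in WT, 1984, 1689 and 1569.5 for gyf1, 2026, 1731 and 1446 for gyf2, 1815, 1426 and 1372 for gyf1 gyf2-1 and 1585, 1656 and 1622 for gyf1 gyf2-2. All double mutant libraries lay below WT, and both single mutants overlapped it. PSAK fell in gyf1 gyf2-1 (log2 fold change −0.45, adjusted p = 0.039, SE 0.15). The PSAK call was lost without WT replicate 1 or 3, gyf1 gyf2-1 replicate 2 or 3 or gyf1 gyf2-2 replicate 1, 2 or 3 (adjusted p 0.0502 to 0.162), and its value in gyf1 gyf2-2 was −0.37 (adjusted p = 0.0777, SE 0.15). PSAN, a subunit on the plastocyanin side, was at 1569.6, 1296 and 1370.0 CPM in WT, 1268, 1156 and 1091 for gyf1, 1379, 1187 and 1064 for gyf2, 1286, 1075 and 1043 for gyf1 gyf2-1 and 1188, 1311 and 1204 for gyf1 gyf2-2. Its gyf1 and gyf1 gyf2-1 libraries lay below WT, and those of gyf1 gyf2-2 overlapped it. PSAN fell in gyf1 gyf2-1 (log2 fold change −0.32, adjusted p = 0.0171, SE 0.09). The PSAN call was lost without WT replicate 1 or gyf1 gyf2-1 replicate 2 or 3 (adjusted p 0.0754 to 0.0999), and its value in gyf1 gyf2-2 was −0.19 (adjusted p = 0.136, SE 0.09).

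The genes for the ferredoxin-docking subunits, PSAD and PSAE, are each present in 2 copies, and PSAE2 was the 1 copy called in no comparison. PSAD1 was at 1585, 1463 and 1575 CPM in WT, 1354, 1323 and 1299.7 for gyf1, 1447, 1338 and 1328 for gyf2, 1644, 1454 and 1485 for gyf1 gyf2-1 and 1514, 1469 and 1641 for gyf1 gyf2-2. Both single mutants lay wholly below WT, whereas the double mutants overlapped WT and lay wholly above both single mutants. For PSAD1 the log2 fold change against WT was −0.22 (adjusted p = 0.169, SE 0.06) in gyf1 and −0.17 (adjusted p = 0.199, SE 0.06) in gyf2, without a call. Against gyf1 the mean of both double mutants was higher (log2 fold change 0.21, adjusted p = 0.00513, SE 0.06), and also against gyf2 (log2 fold change 0.16, adjusted p = 0.0353, SE 0.06), the latter not without gyf2 replicate 2 or 3, gyf1 gyf2-1 replicate 1 or gyf1 gyf2-2 replicate 3 (adjusted p 0.0899 to 0.158). PSAD2 fell in gyf1 (log2 fold change −0.30, adjusted p = 0.0477, SE 0.07) and in gyf1 gyf2-1 (log2 fold change −0.22, adjusted p = 0.0233, SE 0.07). The PSAD2 calls were lost without WT replicate 1 or 3, gyf1 replicate 1, 2 or 3, gyf2 replicate 1, 2 or 3, gyf1 gyf2-1 replicate 2 or 3 or gyf1 gyf2-2 replicate 1 or 3 (adjusted p 0.0563 to 0.291) in gyf1 and without WT replicate 1 or 3 or gyf1 gyf2-1 replicate 2 or 3 (adjusted p 0.052 to 0.145) in gyf1 gyf2-1. PSAE1 fell in gyf2 (log2 fold change −0.26, adjusted p = 0.0304, SE 0.07) and in gyf1 gyf2-1 (log2 fold change −0.20, adjusted p = 0.0312, SE 0.07). The PSAE1 calls were lost without WT replicate 1 or 3 or gyf2 replicate 2 or 3 (adjusted p 0.108 to 0.205) in gyf2 and without WT replicate 1 or 3 or gyf1 gyf2-1 replicate 2 or 3 (adjusted p 0.0887 to 0.109) in gyf1 gyf2-1. PSAE2 had values from −0.11 in gyf1 to 0.04 in gyf1 gyf2-2, with no call.

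PSAG, a subunit beside the antenna, was at 379, 352 and 387 CPM in WT, 317, 307 and 327 for gyf1, 355, 321 and 312 for gyf2, 358, 366 and 329 for gyf1 gyf2-1 and 365, 395 and 389 for gyf1 gyf2-2. The gyf1 libraries lay wholly below WT, and the double mutants lay above gyf1 and overlapped WT. PSAG was higher in the mean of both double mutants than in gyf1 (log2 fold change 0.21, adjusted p = 0.00682, SE 0.06). The PSAG call was lost without gyf1 replicate 2 (adjusted p = 0.0518). PSAH1, which belongs to the docking site of the mobile antenna and had the highest mean value of this subgroup over both double mutants, was at 325, 345 and 324 CPM in WT, 333, 326 and 339.8 for gyf1, 350.4, 329 and 318 for gyf2, 403, 357 and 358 for gyf1 gyf2-1 and 375, 327 and 371 for gyf1 gyf2-2. The gyf1 gyf2-1 libraries lay above WT and the other mutants overlapped it. For PSAH1 the log2 fold change against WT was 0.17 (adjusted p = 0.0601, SE 0.07) in gyf1 gyf2-1 and 0.11 (adjusted p = 0.229, SE 0.07) in gyf1 gyf2-2, so PSAH1 was not called. PSAF, PSAL, PSAO, PSAH2 and PSAE2 were called in no comparison, and their log2 fold changes in the 4 mutants lay between −0.24 and 0.04. PSAG and PSAH1 share most of their exonic bases with an annotated opposite-strand gene, which had 0 counts for PSAG and 1 count for PSAH1 over all libraries.

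In photosystem II, 5 of 10 nuclear subunit genes fell in gyf1 gyf2-1 and 5 in gyf1 gyf2-2, beside 11.7% and 12.6% of all tested genes, with PSBQ1, PSBS, PSBP1 and PSBX called in both. PSBQ1 encodes an extrinsic protein of the oxygen-evolving complex on the lumenal side. PSBQ1 was at 1669, 1562 and 1600.0 CPM in WT, 1436, 1451 and 1407 for gyf1, 1373, 1400.3 and 1336 for gyf2, 1314, 1146 and 1146 for gyf1 gyf2-1 and 1139.9, 1059 and 1196 for gyf1 gyf2-2. The single mutant libraries lay wholly below WT, and the double mutant libraries lay wholly below both single mutants. PSBQ1 had a log2 fold change against WT of −0.42 (adjusted p = 1.05e-05, SE 0.06) in gyf1 gyf2-1 and of −0.51 (adjusted p = 3.89e-07, SE 0.06) in gyf1 gyf2-2. No single library, left out in turn, removed the call in either line. PSBQ1 also fell in gyf2 (log2 fold change −0.23, adjusted p = 0.041, SE 0.06). This gyf2 call was lost without WT replicate 1, 2 or 3, gyf1 replicate 1, 2 or 3, gyf2 replicate 1, 2 or 3, gyf1 gyf2-1 replicate 2 or 3 or gyf1 gyf2-2 replicate 1 (adjusted p 0.0515 to 0.19). Its second copy, PSBQ2, fell in gyf1 gyf2-2 (log2 fold change −0.21, adjusted p = 0.0481, SE 0.08). The PSBQ2 call was lost without WT replicate 1, gyf1 replicate 1, 2 or 3, gyf2 replicate 2, gyf1 gyf2-1 replicate 2 or 3 or gyf1 gyf2-2 replicate 1, 2 or 3 (adjusted p 0.05 to 0.349), and its value was −0.20 (adjusted p = 0.0696, SE 0.08) in gyf1 gyf2-1. In WT the level was 1606 ± 54.1 FPKM for PSBQ1 and 927 ± 114 FPKM for PSBQ2.

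PSBS, the protein needed for rapid heat dissipation of excess light, was at 1321, 1346 and 1313 CPM in WT, 1242, 1227 and 1162 for gyf1, 1207, 1235 and 1125 for gyf2, 1069, 941 and 969 for gyf1 gyf2-1 and 1001, 924 and 1017 for gyf1 gyf2-2. Its pattern was that of PSBQ1, with both single mutants below WT and every double mutant library below all the others. For PSBS the log2 fold change against WT was −0.42 (adjusted p = 1.03e-05, SE 0.06) in gyf1 gyf2-1 and −0.44 (adjusted p = 3.94e-06, SE 0.06) in gyf1 gyf2-2. No single library, left out in turn, removed the call in either line. In the single mutants PSBS had values of −0.13 (adjusted p = 0.478, SE 0.06) in gyf1 and −0.16 (adjusted p = 0.23, SE 0.06) in gyf2. PSBR, which stabilises the oxygen-evolving complex and had the highest FPKM of the photosystem II genes, was at 3239, 2760.3 and 2722 CPM in WT, 2844, 2544 and 2449 for gyf1, 2882, 2386 and 2265 for gyf2, 2688, 2314 and 2335 for gyf1 gyf2-1 and 2554, 2445 and 2467 for gyf1 gyf2-2. The double mutants lay below WT for PSBR, and both single mutants overlapped it. PSBR fell in gyf1 gyf2-1 (log2 fold change −0.25, adjusted p = 0.0319, SE 0.08). The PSBR call was lost without WT replicate 1 or gyf1 gyf2-1 replicate 2 or 3 (adjusted p 0.122 to 0.181), and its value in gyf1 gyf2-2 was −0.22 (adjusted p = 0.0513, SE 0.08).

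PSBX, a small membrane subunit, fell in gyf2 (log2 fold change −0.23, adjusted p = 0.0236, SE 0.06), in gyf1 gyf2-1 (log2 fold change −0.27, adjusted p = 0.000896, SE 0.06) and in gyf1 gyf2-2 (log2 fold change −0.18, adjusted p = 0.0176, SE 0.06). The gyf2 call was lost without WT replicate 1 or 3 or gyf2 replicate 1, 2 or 3 (adjusted p 0.0516 to 0.189) and the gyf1 gyf2-2 call without gyf1 gyf2-2 replicate 1 (adjusted p = 0.0684). PSBP1, another protein of the oxygen-evolving complex, fell in gyf1 gyf2-1 (log2 fold change −0.21, adjusted p = 0.0121, SE 0.06) and gyf1 gyf2-2 (log2 fold change −0.19, adjusted p = 0.0199, SE 0.06). The PSBP1 calls were lost without WT replicate 3 or gyf1 gyf2-1 replicate 2 or 3 (adjusted p 0.0575 to 0.0701) in gyf1 gyf2-1 and without WT replicate 3 or gyf1 gyf2-2 replicate 2 (adjusted p 0.0821 to 0.0836) in gyf1 gyf2-2. PSBO1 and PSBO2, which encode the manganese-stabilising protein, had log2 fold changes between −0.16 and −0.05 in the 4 mutants, with no call. PSBY, a small subunit and the photosystem II gene with the highest mean value over both double mutants, was at 675, 769.5 and 680.1 CPM in WT, 704, 690.2 and 683 for gyf1, 759, 748 and 698 for gyf2, 818, 767 and 755 for gyf1 gyf2-1 and 765, 749 and 804 for gyf1 gyf2-2. The double mutant libraries lay above gyf1 and overlapped WT. PSBY was higher in the mean of both double mutants than in gyf1 (log2 fold change 0.17, adjusted p = 0.0255, SE 0.05). The PSBY call was lost without gyf1 replicate 1, 2 or 3, gyf1 gyf2-1 replicate 1 or gyf1 gyf2-2 replicate 3 (adjusted p 0.0559 to 0.0948). PSBW, a small subunit, was likewise higher in the double mutants than in gyf1 (log2 fold change 0.19, adjusted p = 0.0231, SE 0.06) and gyf2 (log2 fold change 0.18, adjusted p = 0.0361, SE 0.06). The PSBW calls were lost without gyf1 replicate 2 or 3, gyf1 gyf2-1 replicate 1 or gyf1 gyf2-2 replicate 3 (adjusted p 0.0558 to 0.11) for gyf1 and without gyf2 replicate 2 or 3, gyf1 gyf2-1 replicate 1 or gyf1 gyf2-2 replicate 1 or 3 (adjusted p 0.0692 to 0.268) for gyf2.

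The small subunit of Rubisco is encoded by RBCS1A on chromosome 1 and by RBCS1B, RBCS2B and RBCS3B on chromosome 5, and in the double mutants RBCS1A rose while RBCS1B and RBCS2B fell. The promoters of RBCS1A and RBCS2B are shown because these 2 genes moved in opposite directions, again as the 250 bases before the annotated start in RefSeq's TAIR10.1, with capitals for matches to the same letters on either strand.
RBCS1A (chr1:25049668-25049917, minus strand): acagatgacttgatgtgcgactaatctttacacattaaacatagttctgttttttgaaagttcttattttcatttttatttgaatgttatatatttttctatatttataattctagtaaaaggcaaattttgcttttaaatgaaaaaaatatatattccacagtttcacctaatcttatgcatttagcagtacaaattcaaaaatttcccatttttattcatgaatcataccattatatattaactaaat
RBCS2B (chr5:15382072-15382321, minus strand): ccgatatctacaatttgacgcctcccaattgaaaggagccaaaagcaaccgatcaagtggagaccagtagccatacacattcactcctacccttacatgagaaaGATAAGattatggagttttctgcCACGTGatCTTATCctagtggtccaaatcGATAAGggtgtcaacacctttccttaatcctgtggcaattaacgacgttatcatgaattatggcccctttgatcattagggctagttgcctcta

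The RBCS2B window holds a G-box starting 123 bases before the start and I-boxes starting 146, 115 and 94 bases before it. None of these letters was found in the windows of RBCS1A, RBCS1B or RBCS3B, which says only that they are not in these 250 bases. The windows hang on annotated gene starts, and RBCS1B has 1894 annotated exonic bases beside 935 for RBCS2B. The RBCS1B window ends in letters like those that lead into the RBCS2B I-box at 146 bases. Bases past the annotated start were not searched, so RBCS1B and RBCS2B are not shown to differ in these letters.

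RBCS1B (AT5G38430, chromosome 5, 15383167 to 15385320, minus strand in TAIR10) was at 1094, 1208 and 1132 CPM in WT, 1042, 1059.9 and 1094 for gyf1, 1039, 1031 and 970.2 for gyf2, 777, 696 and 769 for gyf1 gyf2-1 and 612, 770.4 and 716 for gyf1 gyf2-2. All 6 double mutant libraries lay below all others, gyf2 lay below WT and gyf1 overlapped it. RBCS1B had a log2 fold change against WT of −0.61 (adjusted p = 1.41e-07, SE 0.07) in gyf1 gyf2-1 and of −0.71 (adjusted p = 7.16e-09, SE 0.07) in gyf1 gyf2-2. RBCS2B was at 2465, 2836 and 2624 CPM in WT, 2414, 2435 and 2619 for gyf1, 2399, 2411 and 2475 for gyf2, 2007, 1875 and 2097 for gyf1 gyf2-1 and 1761, 2017 and 1915 for gyf1 gyf2-2. The double mutants lay below all other libraries, and both single mutants overlapped WT. For RBCS2B the log2 fold change against WT was −0.41 (adjusted p = 2.81e-05, SE 0.07) in gyf1 gyf2-1 and −0.48 (adjusted p = 1.94e-06, SE 0.07) in gyf1 gyf2-2. RBCS1A (AT1G67090, chromosome 1, 25048158 to 25049667, minus strand) was at 15425, 16322 and 15792 CPM in WT, 15405, 15607 and 16732 for gyf1, 15857, 15514 and 13984 for gyf2, 19682, 18058 and 18564 for gyf1 gyf2-1 and 17729, 18086 and 19396 for gyf1 gyf2-2. For RBCS1A all double mutant libraries lay above all others, and both single mutants overlapped WT. RBCS1A had a log2 fold change against WT of 0.24 (adjusted p = 0.00388, SE 0.06) in gyf1 gyf2-1 and of 0.22 (adjusted p = 0.00905, SE 0.06) in gyf1 gyf2-2. No left-out library removed the calls of RBCS1B and RBCS2B or that of RBCS1A in gyf1 gyf2-1, while that of RBCS1A in gyf1 gyf2-2 was lost without gyf1 gyf2-2 replicate 3 (adjusted p = 0.0621). RBCS3B, the second most abundant copy, fell in gyf1 gyf2-1 (log2 fold change −0.23, adjusted p = 0.00517, SE 0.06) with its call kept without any library, and had a value of −0.14 (adjusted p = 0.0797, SE 0.06) in gyf1 gyf2-2, where all of its libraries lay below WT.

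RBCS1A took a larger share of the family's level in the double mutants. Its share of the summed FPKM of the 4 genes was 60.0 ± 0.377% in WT (mean ± SD, n = 3), 62.0 ± 0.753% for gyf1, 60.8 ± 1.14% for gyf2, 68.8 ± 0.350% for gyf1 gyf2-1 and 67.9 ± 0.324% for gyf1 gyf2-2. An exact two-sided permutation test against WT gave p = 0.1 for gyf1 gyf2-1, 0.1 for gyf1 gyf2-2, 0.1 for gyf1 and 0.4 for gyf2, where 0.1 is the smallest p that 3 against 3 libraries allow. The share of RBCS1B was 2.90 ± 0.0799% in WT, 1.83 ± 0.0600% in gyf1 gyf2-1 and 1.73 ± 0.180% in gyf1 gyf2-2, and that of RBCS2B was 13.6 ± 0.619%, 9.91 ± 0.497% and 9.51 ± 0.620%. The ratio of RBCS1A to RBCS1B FPKM was 20.7 ± 0.463 in WT, 22.3 ± 0.462 for gyf1, 22.3 ± 0.660 for gyf2, 37.5 ± 1.38 for gyf1 gyf2-1 and 39.6 ± 4.16 for gyf1 gyf2-2. The coding sequences of RBCS1B and RBCS2B are 97.3% identical, and 7.92% of the 150-base exon windows of RBCS3B and 4.81% of those of RBCS1B occur in each other's exons, so reads of the chromosome 5 copies could be split between them. Summed over RBCS1B, RBCS2B and RBCS3B, the counts fell in gyf1 gyf2-1 (log2 fold change −0.30, adjusted p = 0.00016, SE 0.06) and gyf1 gyf2-2 (−0.27, adjusted p = 0.00049, SE 0.06). All 4 copies together were at 26541 ± 615 CPM in WT, 25742 ± 807 for gyf1, 24959 ± 1241 for gyf2, 27417 ± 1178 for gyf1 gyf2-1 and 27274 ± 1299.6 for gyf1 gyf2-2.

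**Figure D4:**
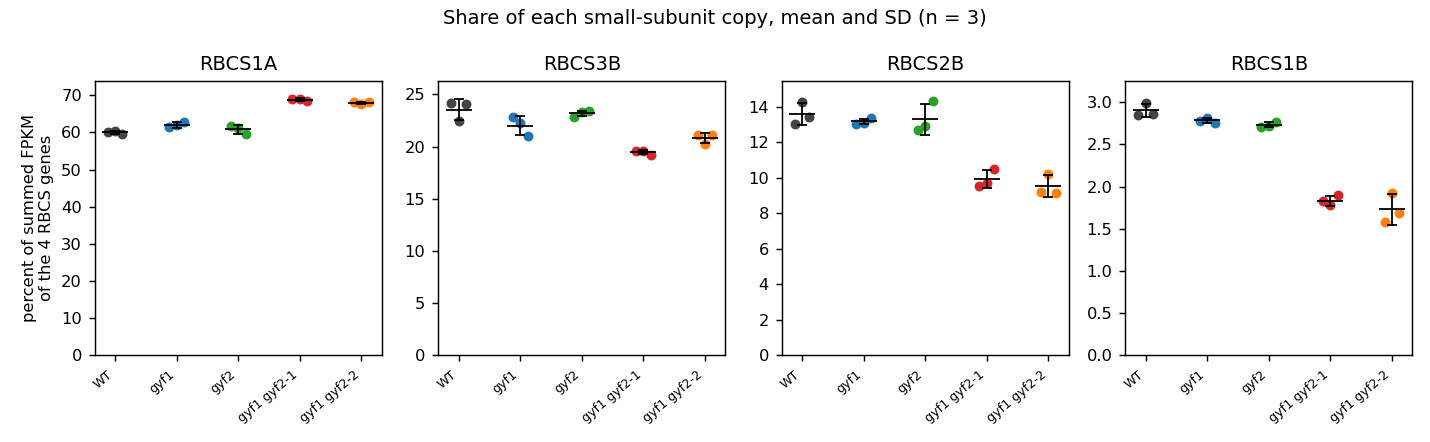
Share of each Rubisco small-subunit gene in the summed FPKM of the 4 genes, in percent, per library (points) with mean and SD of 3 libraries (bars); each vertical axis starts at 0. RBCS1A is 60.0 ± 0.377% in WT, 68.8 ± 0.350% in gyf1 gyf2-1 and 67.9 ± 0.324% in gyf1 gyf2-2, while RBCS1B and RBCS2B are lower there than in WT.

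PRK, which makes the carbon dioxide acceptor ribulose bisphosphate, fell in gyf1 gyf2-2 (log2 fold change −0.16, adjusted p = 0.0484, SE 0.06). The PRK call was lost without WT replicate 2 or 3, gyf1 replicate 1, 2 or 3, gyf2 replicate 1, 2 or 3, gyf1 gyf2-1 replicate 2 or 3 or gyf1 gyf2-2 replicate 1, 2 or 3 (adjusted p 0.0534 to 0.189), and its value in gyf1 gyf2-1 was −0.10 (adjusted p = 0.219, SE 0.06). RCA, the activase that removes inhibitors from Rubisco, was not called in any comparison, with log2 fold changes against WT from −0.11 to 0.01.

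Whether the double mutants differ from each single mutant was tested with the mean of both lines. Against gyf1, 10 members were higher and 6 lower, where 14.3% and 11.2% of all tested genes were. The share of the 47 tested members that was lower than gyf1 lay near that background. Higher were LHCA1, LHCB1.3, LHCB1.4, LHCB2.1, LHCB2.2, PSAD1, PSAG, PSBW, PSBY and RBCS1A. Lower were LHCA6, LHCB4.3, PSBQ1, PSBS, RBCS1B and RBCS2B. The lowest values were those of RBCS1B (log2 fold change −0.56, adjusted p = 3.62e-08, SE 0.06) and LHCA6 (log2 fold change −0.55, adjusted p = 5.51e-09, SE 0.05). The count of higher members was 5 without gyf1 replicate 2 and 6 without gyf1 replicate 3. Against gyf2, 4 members were higher and 6 were lower, namely LHCA6, LHCB4.3, PSBQ1, PSBS, RBCS1B and RBCS2B, where 12.2% and 8.86% of all tested genes were. The share of members that was higher than gyf2 lay below that background. Higher than gyf2 were LHCB1.4, PSAD1, PSBW and RBCS1A, and this count was 1 without gyf2 replicate 2 or 3, 2 without gyf1 gyf2-1 replicate 1 or gyf1 gyf2-2 replicate 3, and 9 without gyf1 gyf2-2 replicate 2. Against gyf1 the LHCA1 call was lost without gyf1 replicate 2 or 3 (adjusted p 0.0563 to 0.0606), and the LHCB4.3 call without gyf1 replicate 2, gyf1 gyf2-1 replicate 2 or gyf1 gyf2-2 replicate 1 (adjusted p 0.0504 to 0.208). Against gyf2 the LHCB4.3 call was lost without gyf2 replicate 2 or 3 (adjusted p 0.0757 to 0.105). For PSBS the log2 fold change was −0.29 (adjusted p = 0.000119, SE 0.05) against gyf1 and −0.27 (adjusted p = 0.000485, SE 0.05) against gyf2. For RBCS1A it was 0.22 (adjusted p = 0.00244, SE 0.05) against gyf1 and 0.30 (adjusted p = 0.000166, SE 0.05) against gyf2.

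The 2 double mutant lines were also set against each other, and no member was called by edgeR, by DESeq2 or by limma. By edgeR 0.232% of all tested genes were called. At an unadjusted p below 0.05 in edgeR's test there were 0 members, beside 1539 of all 20721 tested genes. The log2 difference of gyf1 gyf2-2 from gyf1 gyf2-1 lay between −0.10 and 0.13. No member was called between gyf2 and gyf1 by the same 3 tools either, where edgeR called 0.96% of all tested genes. Here 0 members had an unadjusted p below 0.05 in edgeR's test, beside 1372 of all 20721 tested genes. The log2 difference of gyf2 from gyf1 lay between −0.07 and 0.24. The genes called in 1 line or in 1 single mutant alone were thus not shown to differ between the lines or between the single mutants.

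Non-additivity, the mean change of both double mutants minus the sum of the changes in gyf1 and gyf2 on the log2 scale, was called for 13 members, 11 above and 2 below 0, where 4.85% and 2.35% of all tested genes were. It takes the gyf1 and gyf2 mutations of the single and double mutants as the same, which the labels do not state. The values above 0 belong to genes whose changes in gyf1 and gyf2 added up to values further below WT than the double mutants, or, for RBCS1A, to a rise in the double mutants. LHCB1.4 came highest (non-additivity 0.71, adjusted p = 0.00726, SE 0.15), followed by LHCB2.2 (non-additivity 0.64, adjusted p = 0.0124, SE 0.15) and LHCB2.1 (non-additivity 0.52, adjusted p = 0.0368, SE 0.14). In photosystem I the value was 0.38 (adjusted p = 0.00472, SE 0.08) for PSAD1 and 0.39 (adjusted p = 0.00507, SE 0.09) for PSAG. The 2 values below 0 were those of LHCA6 (non-additivity −0.40, adjusted p = 0.00243, SE 0.08) and RBCS1B (non-additivity −0.38, adjusted p = 0.0103, SE 0.09), which were lower in the double mutants than the single mutants add up to. LHCA6, LHCB1.4, PSAD1, PSAG and RBCS1B kept their calls without any library in turn. The calls of LHCA1, LHCB2.1, LHCB2.2, LHCB6, PSAD2, PSAE1, PSBW and RBCS1A were each lost without at least 1 library, and the count above 0 was 4 without gyf1 replicate 2 or gyf2 replicate 3, 6 without WT replicate 1 or 3, 7 without gyf1 replicate 3 or gyf2 replicate 2, and 18 without gyf1 gyf2-2 replicate 2. The median over the members was 0.22, against −0.0046 over all tested genes, and by subgroup, in the order above, 0.27, 0.33, 0.22, 0.16 and −0.06, where the carbon fixation median was −0.01 without WT replicate 1.

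Some genes that work beside the members also fell in the double mutants. Of 18 other Calvin cycle genes, 0 rose and 7 fell in gyf1 gyf2-1, and 1 rose and 7 fell in gyf1 gyf2-2. Among them, the log2 fold change of GAPA2, a subunit of plastid glyceraldehyde phosphate dehydrogenase, was −0.47 (adjusted p = 3.86e-07, SE 0.06) in gyf1 gyf2-1 and −0.51 (adjusted p = 6.21e-08, SE 0.06) in gyf1 gyf2-2. That of FBA1, a plastid aldolase, was −0.32 (adjusted p = 0.00024, SE 0.06) in gyf1 gyf2-1 and −0.41 (adjusted p = 1.01e-05, SE 0.06) in gyf1 gyf2-2. That of CP12-2, which binds the dehydrogenase and PRK, was −0.33 (adjusted p = 0.00218, SE 0.08) in gyf1 gyf2-1 and −0.51 (adjusted p = 1.25e-05, SE 0.08) in gyf1 gyf2-2. Of 14 tested genes of electron transport and the ATP synthase, 0 rose and 6 fell in gyf1 gyf2-1, and 1 rose and 7 fell in gyf1 gyf2-2. The count that fell was 1 without gyf1 gyf2-1 replicate 2 in gyf1 gyf2-1, and 4 without gyf1 gyf2-2 replicate 1 in gyf1 gyf2-2. Examples are ATPC1, the gamma subunit of the ATP synthase (−0.19, adjusted p = 0.014, SE 0.06 in gyf1 gyf2-1 and −0.28, adjusted p = 0.0004, SE 0.06 in gyf1 gyf2-2), PETC, the Rieske protein of the cytochrome b6f complex (−0.22, adjusted p = 0.0062, SE 0.06 in gyf1 gyf2-1 and −0.22, adjusted p = 0.00567, SE 0.06 in gyf1 gyf2-2), and PGR5 of cyclic electron flow (−0.35, adjusted p = 0.00314, SE 0.09 in gyf1 gyf2-1 and −0.29, adjusted p = 0.012, SE 0.09 in gyf1 gyf2-2). The background was 11.7% of all tested genes lower in gyf1 gyf2-1 and 12.6% in gyf1 gyf2-2. In neither single mutant was a gene of these 2 lists called by edgeR, where 0 and 2 genes in gyf1 and 2 and 4 in gyf2 had an unadjusted p below 0.05. Of all 20721 tested genes, 2099 in gyf1 and 2830 in gyf2 had such a p. DESeq2 and limma also called no gene of these 2 lists in a single mutant. The counts that rose stayed between 0 and 2 in both lists when any one library was left out.

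Of 17 tested chlorophyll synthesis genes, 1 rose and 8 fell in gyf1 gyf2-1, and 8 fell in gyf1 gyf2-2, where 11.7% and 12.6% of all tested genes fell and 14.2% rose in gyf1 gyf2-1. None was called by edgeR in a single mutant, where 5 in gyf1 and 3 in gyf2 had an unadjusted p below 0.05. Of all 20721 tested genes, 2099 in gyf1 and 2830 in gyf2 had such a p. DESeq2, unlike limma, called 1 of the 17 genes, lower in gyf1. In gyf1 gyf2-1 the count that fell was 5 without its own replicate 2, and the gene that rose was PORB, a protochlorophyllide reductase. PORA had a higher mean log2 fold change over both double mutants, 0.67 beside 0.16 for PORB, but was not called. DVR, the divinyl reductase, had a log2 fold change of −0.36 (adjusted p = 0.000105, SE 0.06) in gyf1 gyf2-1 and −0.42 (adjusted p = 9.63e-06, SE 0.06) in gyf1 gyf2-2. CRD1, of the cyclase step, had −0.31 (adjusted p = 0.000231, SE 0.06) in gyf1 gyf2-1 and −0.30 (adjusted p = 0.000366, SE 0.06) in gyf1 gyf2-2. PORC, another protochlorophyllide reductase, had −0.31 (adjusted p = 0.00018, SE 0.06) in gyf1 gyf2-1 and −0.25 (adjusted p = 0.00107, SE 0.06) in gyf1 gyf2-2. Of 15 genes for photoprotection, photosystem assembly and antenna import, 4 fell in gyf1 gyf2-1 and 7 in gyf1 gyf2-2, beside the same 11.7% and 12.6%. The early light-induced protein gene ELIP1 fell in gyf1 (log2 fold change −0.43, adjusted p = 0.0172, SE 0.09), gyf2 (log2 fold change −0.52, adjusted p = 0.000534, SE 0.09) and the double mutants (−0.81, adjusted p = 2.07e-07, SE 0.09 in gyf1 gyf2-1 and −0.61, adjusted p = 1.02e-05, SE 0.09 in gyf1 gyf2-2), and ELIP2 also fell in all 4. In gyf1 the count of this list that fell, 2, was 1 without gyf1 replicate 1 or any WT replicate and 0 without gyf1 replicate 3, and in gyf2 it was 1 without WT replicate 2 or any gyf2 replicate. PSB28, a photosystem II assembly factor, had −0.44 (adjusted p = 7.41e-05, SE 0.08) in gyf1 gyf2-1 and −0.52 (adjusted p = 4.8e-06, SE 0.08) in gyf1 gyf2-2, and CPSRP43, which brings antenna proteins to the thylakoid, had −0.26 (adjusted p = 0.00315, SE 0.06) in gyf1 gyf2-1 and −0.44 (adjusted p = 5.55e-06, SE 0.06) in gyf1 gyf2-2.

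Among 19 tested regulators of photosynthesis genes, 3 rose and 8 fell in gyf1 gyf2-1, and 3 rose and 8 fell in gyf1 gyf2-2, and the genes called were the same in both. Of all tested genes 11.7% and 12.6% fell and 14.2% and 15.1% rose, so the share of regulators that rose lay near the background. Those that fell were the GLK1, GLK2, HY5, HYH, GNC and CGA1 transcription factor genes and the plastid sigma factor genes SIG1 and SIG6. Those that rose were PIF4 and PIF5, whose products promote growth in shade, and BBX21. For GLK1 the log2 fold change was −0.58 (adjusted p = 5.57e-06, SE 0.08) in gyf1 gyf2-1 and −0.73 (adjusted p = 7.91e-08, SE 0.08) in gyf1 gyf2-2. GLK1 also fell in gyf2 (log2 fold change −0.35, adjusted p = 0.0111, SE 0.08), a call lost without WT replicate 1 or gyf2 replicate 1 or 2. GLK2 had −0.42 (adjusted p = 3.39e-05, SE 0.07) in gyf1 gyf2-1 and −0.61 (adjusted p = 6.79e-08, SE 0.07) in gyf1 gyf2-2. In gyf1 gyf2-2 the count that rose was 5 without its own replicate 2. HY5 had −0.53 (adjusted p = 0.000589, SE 0.11) in gyf1 gyf2-1 and −0.55 (adjusted p = 0.00028, SE 0.11) in gyf1 gyf2-2. GNC had −0.50 (adjusted p = 0.000392, SE 0.10) in gyf1 gyf2-1 and −0.54 (adjusted p = 0.000115, SE 0.10) in gyf1 gyf2-2. These are transcript levels, and whether they bear on the members was not tested.

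Among markers of tissues that a whole seedling mixes, the leaf and shoot list had a lower median than the root list in both double mutants. The median log2 fold change of the leaf and shoot markers was −0.23 in gyf1 gyf2-1 and −0.30 in gyf1 gyf2-2, beside −0.20 and −0.14 over the members and −0.01 and −0.01 over all tested genes. That of the root markers was −0.02 and −0.10. Of all tested genes 11.7% and 12.6% fell and 14.2% and 15.1% rose in these lines. Of 14 root markers, 1 rose and 0 fell in gyf1 gyf2-1, and 1 rose and 1 fell in gyf1 gyf2-2. PYK10, a root beta-glucosidase, rose in gyf1 (log2 fold change 0.35, adjusted p = 0.0283, SE 0.08) and in both lines (0.49, adjusted p = 2.5e-05, SE 0.08 in gyf1 gyf2-1 and 0.52, adjusted p = 7.58e-06, SE 0.08 in gyf1 gyf2-2), the gyf1 call lost without WT replicate 1 or 2 or gyf1 replicate 3, and NRT2.1, a nitrate transporter, fell in gyf1 gyf2-2 (log2 fold change −1.51, adjusted p = 0.0287, SE 0.45) with −0.47 (adjusted p = 0.454, SE 0.42) in gyf1 gyf2-1. The NRT2.1 call was lost without WT replicate 2 or gyf1 gyf2-2 replicate 2. EXPA7, a root hair expansin, had −0.09 (adjusted p = 0.792, SE 0.21) in gyf1 gyf2-1 and −0.57 (adjusted p = 0.0526, SE 0.22) in gyf1 gyf2-2 without a call. The summed level of the root markers ranged from 2398 to 2829 CPM in WT, 3009 to 3872 for gyf1, 2749.7 to 3115 for gyf2, 3619 to 3722 for gyf1 gyf2-1 and 3613 to 3833 for gyf1 gyf2-2. Without PYK10 the ranges were 108 to 128 CPM in WT, 113 to 143 for gyf1, 112 to 117 for gyf2, 107 to 119 for gyf1 gyf2-1 and 95.3 to 105 for gyf1 gyf2-2. Of 9 leaf and shoot markers, 1 rose and 4 fell in gyf1 gyf2-1, where 2 fell without its own replicate 2 or 3 and the 1 that rose, STM of the shoot meristem, was lost without WT replicate 3 or its own replicate 2 or 3, and 4 fell in gyf1 gyf2-2. AS1, a leaf patterning factor, had −0.32 (adjusted p = 0.00261, SE 0.08) in gyf1 gyf2-1 and −0.46 (adjusted p = 3.37e-05, SE 0.08) in gyf1 gyf2-2, YAB3, of the abaxial leaf side, had −0.23 (adjusted p = 0.0178, SE 0.07) in gyf1 gyf2-1 and −0.30 (adjusted p = 0.00202, SE 0.07) in gyf1 gyf2-2, and CA1, a carbonic anhydrase of green tissue, had −0.32 (adjusted p = 0.00174, SE 0.07) in gyf1 gyf2-1 and −0.39 (adjusted p = 0.000158, SE 0.07) in gyf1 gyf2-2. The summed level of the leaf and shoot markers ranged from 2134 to 2713 CPM in WT, 2279 to 2467 for gyf1, 2253 to 2470.4 for gyf2, 1889 to 2066 for gyf1 gyf2-1 and 1791 to 1956 for gyf1 gyf2-2, and without CA1 from 219 to 235 CPM in WT, 228 to 233 for gyf1, 216 to 239 for gyf2, 206 to 214 for gyf1 gyf2-1 and 190.4 to 196 for gyf1 gyf2-2. Both leaf and shoot ranges lay wholly below WT in each double mutant. The root range without PYK10 also lay wholly below WT in gyf1 gyf2-2, and it overlapped WT in gyf1 gyf2-1. With PYK10 the root range lay wholly above WT in each double mutant. No marker on either list had a mean of 0 in any genotype. The part of tissue makeup in the members' changes was not tested.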

How the data were processed

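mRNA of 15 seedling libraries, 3 for each of 5 genotypes, was analysed from 2 deposited tables. The authors deposited read counts per gene, as whole numbers whose totals differ between libraries, made before any normalization as far as the values show. The other table holds FPKM as deposited by the authors, beside a gene length column per the file headers, and the sources used here do not give its scaling per library. Tools listed in the submitters' processing notes are HTSeq 0.6.1p1 and HISAT2 2.0.4, with TAIR10 as the build and no strand setting. Every column was matched to a library by its title.

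Counts were tested with edgeR 4.0.16 in R 4.3.3 (robust quasi-likelihood test, TMM scaling, 1 mean per genotype over all 15 libraries). The filterByExpr step kept 20721 of 32833 genes, and p-values were adjusted by Benjamini-Hochberg over all of them in each of 9 comparisons, with a threshold of 0.05. CPM uses TMM-scaled library sizes, and the SE is the log2 fold change divided by the root of the F statistic. Depth was 16567801 to 24681140 counts per library. FPKM served for levels and shares between genes. The script for the test was checked on simulated counts. Alternatives were DESeq2 1.42.0, limma 3.58.1 on log2(FPKM + 0.1), other scalings, filters, sample sets, summed copies, a replicate block and leaving out each library. Gene positions in the count table were matched to RefSeq's TAIR10.1 annotation.

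All 48 members could be named. Values in every library are given for those lowest, highest and most abundant in each subgroup and for up to 8 called in other comparisons, taken by lowest adjusted p. Of each other list, the 3 genes with the lowest adjusted p over both double mutants are named, plus GLK1, GLK2 and HY5. PORA, PORB, ELIP2, STM and the other called regulators were named after their values were seen. The members and lists were chosen with earlier results of these data known.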

Additional observations from a re-analysis of the deposited data

Results flagged for a closer look

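For 13 of the 47 tested members the change in the double mutants differed from what the single mutants add up to, by edgeR's test of non-additivity. Of these, 11 lay above 0 and 2 below, where 4.85% and 2.35% of all tested genes did. The test takes the single and double mutants to carry the same gyf1 and gyf2 mutations, which the labels do not state. All values are log2 differences, the mean change of both double mutants against WT minus the sum of the changes in gyf1 and gyf2. In the antenna, the value was 0.71 (adjusted p = 0.00726, SE 0.15) for LHCB1.4, 0.64 (adjusted p = 0.0124, SE 0.15) for LHCB2.2 and 0.52 (adjusted p = 0.0368, SE 0.14) for LHCB2.1. It was 0.49 (adjusted p = 0.0431, SE 0.14) for LHCA1 and 0.36 (adjusted p = 0.0252, SE 0.10) for LHCB6, and −0.40 (adjusted p = 0.00243, SE 0.08) for LHCA6, which alone of the antenna genes called here lay below 0. In photosystem I it was 0.38 (adjusted p = 0.00472, SE 0.08) for PSAD1, 0.31 (adjusted p = 0.04, SE 0.09) for PSAD2, 0.36 (adjusted p = 0.0132, SE 0.09) for PSAE1 and 0.39 (adjusted p = 0.00507, SE 0.09) for PSAG. In photosystem II PSBW had a value of 0.36 (adjusted p = 0.0161, SE 0.09). The Rubisco small-subunit genes lay on either side of 0, RBCS1A at 0.29 (adjusted p = 0.0265, SE 0.08) and RBCS1B at −0.38 (adjusted p = 0.0103, SE 0.09).

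The calls of 8 of these genes rested on particular libraries. The call of LHCB2.2 was lost without WT replicate 1 (adjusted p = 0.0586), that of PSAE1 without gyf1 replicate 2 or gyf2 replicate 3 (adjusted p 0.0521 to 0.0694) and that of PSBW without WT replicate 1, gyf1 replicate 2 or gyf2 replicate 3 (adjusted p 0.0539 to 0.0715). RBCS1A lost its call without WT replicate 2 or 3, gyf1 replicate 1 or 2 or gyf2 replicate 3 (adjusted p 0.06 to 0.115) and LHCB6 without WT replicate 1 or 3, gyf1 replicate 2 or 3 or gyf2 replicate 2 or 3 (adjusted p 0.0596 to 0.0867). For LHCB2.1 this held without WT replicate 1 or 3, gyf1 replicate 1, 2 or 3, gyf2 replicate 2 or 3, gyf1 gyf2-1 replicate 1 or 2 or gyf1 gyf2-2 replicate 3 (adjusted p 0.0547 to 0.121). For LHCA1 it held without WT replicate 1 or 3, gyf1 replicate 2 or 3, gyf2 replicate 1, 2 or 3, gyf1 gyf2-1 replicate 1 or 2 or gyf1 gyf2-2 replicate 1 or 3 (adjusted p 0.0617 to 0.139), and for PSAD2 without WT replicate 1 or 3, gyf1 replicate 1, 2 or 3, gyf2 replicate 1, 2 or 3, gyf1 gyf2-1 replicate 1 or 2 or gyf1 gyf2-2 replicate 1 or 3 (adjusted p 0.0551 to 0.13).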

How the results depend on the processing

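DESeq2, limma on log2(FPKM + 0.1), 2 other scalings, no filter on low counts, only the genotypes compared, summed copies, a replicate block and leaving out each library were tried, and no called member changed sign. Medians near 0 did: the carbon fixation median of gyf1 was 0.00067 without WT replicate 2 and 0.01 with copies summed, against −0.04, and several medians close to 0 in comparisons between mutants also changed sign. The number of members that fell in gyf1, 2 by edgeR, was 1 with DESeq2's size factors, 1 with TMM factors from the other genes, 1 with limma and 11 with DESeq2, and in gyf2 the 4 became 1 with only the genotypes compared and 2 with limma. The 1 member that rose became 2 in gyf1 gyf2-1 with DESeq2 and 0 in gyf1 gyf2-2 with only the genotypes compared. Against gyf2, the 4 members higher in the double mutants became 7 with DESeq2. For non-additivity the 11 above 0 became 6 with limma, and the 2 below 0 became 1 with the copies summed. Causes of these shifts were not tested. Of values of single called members, 573 under other settings and 1017 with a library left out kept their call, and 44 and 198 kept their direction but not the call.

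With a library left out, the members that fell numbered 0 to 6 in gyf1, 0 to 4 in gyf2, 9 to 22 in gyf1 gyf2-1 and 8 to 19 in gyf1 gyf2-2, and those that rose 1 to 2 and 0 to 3 in the last 2. Against gyf1 the double mutants had 5 to 13 members higher and 5 to 7 lower, and against gyf2 1 to 9 higher and 5 to 6 lower. Non-additivity was above 0 for 4 to 18 and below 0 for 2 to 3. The other counts stayed at 0.

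The replicate numbers were not taken as pairing the samples, by a rule that every same-number pair should correlate above 0.1. This rule cannot decide whether some libraries with the same number share a batch, and the labels do not say. Over 30 pairs of libraries with the same number from different genotypes, deviations from the genotype means correlated at −0.116 to 0.317, with a median of 0.05 and 7 over 0.1. Over 60 pairs with different numbers the range was −0.298 to 0.181, with a median of −0.04 and 8 over 0.1. In all, 9 of 15 libraries correlated best with one of their own number. The members' median log2 difference from the WT mean was highest in replicate 1 for WT (0.05), gyf1 (−0.16), gyf2 (−0.08) and gyf1 gyf2-1 (−0.10). For gyf1 gyf2-2 it was highest in replicate 3 (−0.05). With the number as a replicate block, 10 members fell in gyf1, 3 rose in gyf1 gyf2-1, 7 were higher than gyf2 and 17 had a non-additivity above 0.

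Precision is limited by 3 libraries per genotype. With a common biological coefficient of variation of 7.94%, calls at a log2 fold change near 0.2 lay close to the threshold. Overlapping neighbours, and copies that share sequence, leave their counts uncertain.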

Other observations

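The plastid-encoded partners of these proteins were also counted, at low numbers. Over 33 plastid genes for photosystem subunits, the Rubisco large subunit, the cytochrome b6f complex and the ATP synthase, the summed level was 86.1, 87.3 and 104 CPM in the WT libraries, 92.7, 92.4 and 98.1 for gyf1, 80.2, 95.0 and 99.6 for gyf2, 78.8, 91.0 and 99.8 for gyf1 gyf2-1 and 77.9, 106 and 90.8 for gyf1 gyf2-2. Of the 25 that passed the filter, 2 fell in gyf1 gyf2-2 by edgeR's test, beside 12.6% of all tested genes. None was called in the other 3 mutants. An unadjusted p below 0.05 was found for 1, 0, 1 and 7 genes in gyf1, gyf2, gyf1 gyf2-1 and gyf1 gyf2-2. Of all 20721 tested genes, 2099, 2830, 7666 and 7897 had such a p, in the same order. DESeq2 called the same 2 in gyf1 gyf2-2, limma called 3, and neither called any in the other mutants. For psaJ, of photosystem I, the log2 fold change was −1.07 (adjusted p = 0.00624, SE 0.29) in gyf1 gyf2-2 and −0.52 (adjusted p = 0.179, SE 0.28) in gyf1 gyf2-1. Raw counts of psaJ, not scaled for depth, were 69, 44 and 50 in WT, 73, 39 and 34 for gyf1, 73, 43 and 36 for gyf2, 45, 27 and 27 for gyf1 gyf2-1 and 21, 30 and 24 for gyf1 gyf2-2. For atpB, of the ATP synthase, it was −0.32 (adjusted p = 0.0268, SE 0.11) in gyf1 gyf2-2 and −0.11 (adjusted p = 0.491, SE 0.11) in gyf1 gyf2-1. Left-out libraries were tried after seeing the data: the psaJ call held without each library, and the atpB call was lost without WT replicate 2 or gyf1 gyf2-2 replicate 1 or 2. The genes that fell in gyf1 gyf2-2 numbered 4 without WT replicate 1 and 1 without WT replicate 2, and 1 gene fell in gyf1 gyf2-1 without WT replicate 1. In gyf1 gyf2-2, 1 gene rose without gyf1 gyf2-1 replicate 3 and 2 rose without gyf1 gyf2-2 replicate 1. Chloroplast mRNA mostly lacks the long tails by which mRNA is usually captured, so these counts are no measure of its level.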
